A study of Homo sapiens with 3 samples.

Results

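The library labelled DDX3+YAPsi was compared with the library labelled DDX3, which asks what differed between SW48 cells that carried a DDX3 plasmid with and without an added plasmid for YAP1 knockdown. SW48 is an established human colorectal cancer cell line. The array held 18282 genes named by a single symbol on at least 1 probe, and 9834 of them reached the floor described below in both libraries, so these 9834 are the genes compared. The comparison used 2 of the 3 samples of the study, each from 1 group: SW48 cells with the DDX3 overexpression plasmid plus the YAP1 knockdown plasmid, and SW48 cells with the DDX3 overexpression plasmid alone. The remaining sample, SW48 cells with the empty plasmid pcDNA3.1, is given beside them as the vector library. All cells had been kept under G418 for 4 weeks and were used as stable cells. Each sample was made from 2 technical replicates whose separate values were not analysed here. Both libraries compared carry the DDX3 plasmid, and no library has the knockdown plasmid without it, so an effect of the knockdown that needs DDX3 and one that does not cannot be told apart. With 1 sample a side no difference has a replicate check, so values are described and no test was made.

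YAP1 is a transcriptional coactivator that enters the nucleus when the kinases of the Hippo pathway are inactive, and binds DNA through TEAD transcription factors. Its relative WWTR1, also called TAZ, works in the same way, and matricellular genes such as CYR61 and CTGF are textbook targets of both. In the intestine YAP1 is known for its role in regeneration after injury and in colorectal tumour growth. DDX3, encoded by DDX3X, is a DEAD-box RNA helicase with roles in translation initiation, splicing and RNA export.

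Every value below is a probe intensity scaled so that all libraries have the same 75th percentile, averaged on the log2 scale over the probes of a gene. A difference is the log2 value in the library labelled DDX3+YAPsi minus that in the library labelled DDX3. The floor was the median over all probes of a library, at 411 in the library labelled DDX3+YAPsi, 382 in that labelled DDX3 and 378 in the vector library. Before scaling the medians were 305, 414 and 469 in the same order, so the library labelled DDX3+YAPsi was the dimmest. Intestinal epithelial markers reached the floor for 13 of 18 genes on the array in the library labelled DDX3+YAPsi, for 13 in that labelled DDX3 and for 14 in the vector library. EPCAM, CDH1, CDX2 and KRT19 were among them, whereas VIL1, GPA33, TFF3 and FABP1 lay below the floor in all libraries. Of markers of other cell types, 1 of 10 fibroblast, 2 of 9 leukocyte and 2 of 8 endothelial genes reached the floor in the library labelled DDX3+YAPsi, against 1, 3 and 1 in the library labelled DDX3. The summed fibroblast marker level was 3752 in the library labelled DDX3+YAPsi and 2949 in that labelled DDX3, the leukocyte sums were 3387 and 3001, and the endothelial sums were 1832 and 1495. PTPRC, PECAM1 and COL1A2, defining genes of these types, were below the floor in both libraries. From the same lists CD14, CD68, VWF and COL1A1 reached it in both. COL1A1 had 2623 in the library labelled DDX3+YAPsi and 1951 in that labelled DDX3.

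YAP1 itself did not differ in the direction of the label. Its single probe had 20768 in the library labelled DDX3+YAPsi, 20279 in that labelled DDX3 and 18298 in the vector library, a difference of 0.03. WWTR1 differed by 0.23, with 671 in the library labelled DDX3+YAPsi and 572 in that labelled DDX3. Of its 2 probes the brighter differed by 0.49, and the other by -0.02 at a level next to the floor. DDX3X had 6252 in the library labelled DDX3+YAPsi, 7137 in that labelled DDX3 and 9891 in the vector library, with probe differences of -0.11 and -0.27 between the first pair. Against the vector library its probes disagreed: the brighter had 57967 in the library labelled DDX3, against 49549 in the vector library, and the dimmer 879 and 1975 in the same order. YAP1 therefore did not bear out its label. DDX3X lay above the vector library on 1 of 2 probes in the library labelled DDX3. In the library labelled DDX3+YAPsi both probes lay below the vector library, the brighter at 48085 and the dimmer at 813. The libraries are named by label throughout. Probe positions were not given in the sources used here, so a probe outside a plasmid insert would check nothing for DDX3X.

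The targets of YAP1 and TAZ lay on both sides of the other genes. Of 25 listed targets 15 were measured, 7 above and 8 below the median of all measured genes, where 50% of all genes lie on each side by construction. Their median difference was -0.07, beside 0.02 over all 9834 genes. None was 1.5-fold apart, but 95.1% of all measured genes were within 1.5-fold, so this does not set the targets apart. CYR61, a secreted matricellular protein, had 585 in the library labelled DDX3+YAPsi, against 861 in that labelled DDX3 and 417 in the vector library, a difference of -0.56. CTGF, its close relative, had 854 in the library labelled DDX3+YAPsi, 698 in that labelled DDX3 and 476 in the vector library, a difference of 0.29. These textbook targets thus stood on opposite sides, each near the floor. The 5'-ectonucleotidase NT5E (-0.35) and the IGF carrier IGFBP3 (-0.33) were lower, whereas the kinase NUAK2 (0.41) was higher. Relative to the median of all genes, the list median kept its sign in 12 of 13 alternative settings. Here and below, scaling to a common median and no scaling shift all genes alike, so these settings could not change a sign on this scale.

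The upstream sequence of CTGF is shown because it carries the TEAD letters that other promoters below are compared with. Sequences are from RefSeq (GRCh38.p14), 250 bases before the annotated gene start, written 5′ to 3′ on the strand of the gene. Capitals mark the letters GGAATG (TEAD), TTTGAA (the cell cycle element CHR) and CCAAT, each searched on both strands, so that a match on the other strand reads in reverse complement. CTGF is listed there as CCN2, at chr6:131951373-131951622 on the minus strand, and has 3 TEAD matches.
CTGF: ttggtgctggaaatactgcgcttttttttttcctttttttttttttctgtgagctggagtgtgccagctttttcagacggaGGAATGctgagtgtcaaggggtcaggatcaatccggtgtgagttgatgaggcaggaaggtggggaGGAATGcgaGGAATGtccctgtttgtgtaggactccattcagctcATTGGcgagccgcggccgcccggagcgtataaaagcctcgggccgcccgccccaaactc
In windows of the same 250 bases before the start, a TEAD match was present in 11.9% of 27305 promoters and in 9.38% of the 8143 measured genes with a listed promoter. Of the measured YAP and TAZ targets 2 of 9 with a listed promoter held one.

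The Hippo pathway list, which holds its kinases, scaffolds and nuclear partners, had 20 measured genes, 13 above and 7 below the median of all genes, with a median difference of 0.07. MOB1A, an activator of the LATS kinases, had 5648 in the library labelled DDX3+YAPsi, against 8997 in that labelled DDX3 and 8302 in the vector library, a difference of -0.67. The scaffold SAV1 differed by -0.36. TEAD3, a DNA-binding partner of YAP1, had 2655 in the library labelled DDX3+YAPsi and 1948 in that labelled DDX3 (0.45), and VGLL1, a cofactor that binds TEAD proteins, had 1209 and 902 in the same order (0.42). NF2, the membrane-associated regulator at the top of the pathway, differed by 0.33.

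Across all 9834 measured genes the libraries were close. The median difference was 0.02, the middle 50% of genes lay between -0.18 and 0.22, and 95.1% were within 1.5-fold. At least 2-fold apart were 11 higher genes (0.112% of those measured) and 16 lower genes (0.163%). At 1.5-fold there were 239 higher (2.43%) and 246 lower genes (2.5%). The genes just inside the 2-fold threshold were ISYNA1 (1.01) and AHDC1 (1.04) on the higher side and DPH2 (-1.02) and RABGGTB (-1.03) on the lower side. Just outside stood DCLK2 (0.998), ALDH16A1 (0.99), CARKD (-0.98) and TRIT1 (-0.96). Of the 27 genes past 2-fold, 25 rest on 1 probe, as do 6647 of the 9834 measured genes. Their dimmer value was under 2 times the floor of that library in 6 of the higher and 6 of the lower ones. The share of all measured genes under that level is not given here.

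**Figure D1:**
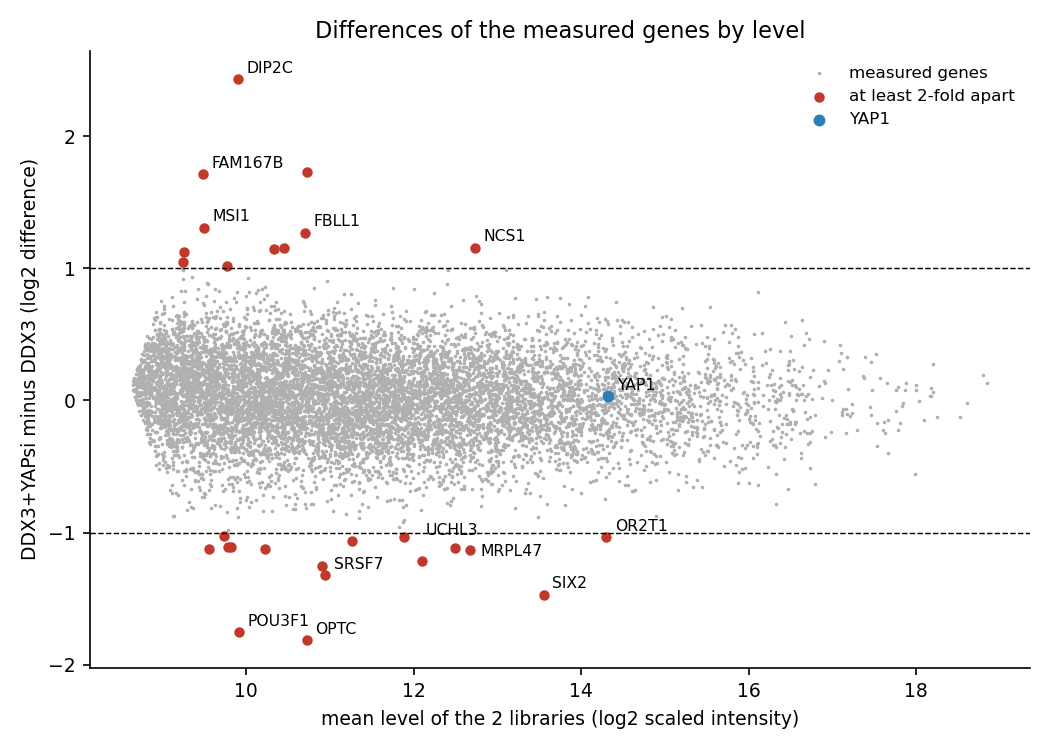
Log2 difference between the libraries labelled DDX3+YAPsi and DDX3 (vertical axis) against the mean log2 scaled intensity of both (horizontal axis), 1 point for each of 9834 measured genes. Dashed lines mark 2-fold; 27 red points lie beyond them, mostly among dimmer genes, and YAP1 lies at 0.03.

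Transcription factors and a matrix proteoglycan led the lower genes. OPTC, a small leucine-rich proteoglycan of the extracellular matrix, had 907 in the library labelled DDX3+YAPsi, 3181 in that labelled DDX3 and 953 in the vector library, a difference of -1.81. POU3F1, a POU-domain transcription factor of neural and epidermal cells, had 526 in the library labelled DDX3+YAPsi, against 1772 in that labelled DDX3 and 345, below the floor, in the vector library (-1.75). SIX2, a homeobox transcription factor known for maintaining kidney progenitors, had 7243 in the library labelled DDX3+YAPsi, 20057 in that labelled DDX3 and 9353 in the vector library (-1.47). In each of these genes the library labelled DDX3 was the high one and the other libraries lay closer to each other. In all 16 lower genes past 2-fold the vector library, too, lay below the library labelled DDX3, within 1.5-fold of it in 6. Of the 11 higher genes 8 had the vector library above the library labelled DDX3, and 8 had it within 1.5-fold. The same shares over all measured genes are not given here. Since the library labelled DDX3 enters both comparisons, a deviation of that single library and a change in each step cannot be told apart. OPTC, POU3F1 and SIX2 each rest on 1 probe, and each stayed at least 2-fold lower in every alternative setting in which it was measured. For a gene with 1 probe, other floors and probe summaries leave a measured value as it is, so those settings could not change this.

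Relatives of these genes lay on both sides. SIX5 had 2699 in the library labelled DDX3+YAPsi and 1709 in that labelled DDX3 (0.66), and EYA3, a cofactor of these homeobox proteins, differed by 0.16. Among POU factors POU3F4 was at 0.62, POU2F1 at 0.21 and POU2F3 at -0.23. Of the proteoglycans EPYC was at 0.42 and BGN at 0.27.

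The upstream sequences of the 3 genes furthest down in order are shown with the same capitals as for CTGF. OPTC lies at chr1:203493903-203494152 on the plus strand, POU3F1 at chr1:38046794-38047043 on the minus strand and SIX2 at chr2:45009453-45009702 on the minus strand.
OPTC: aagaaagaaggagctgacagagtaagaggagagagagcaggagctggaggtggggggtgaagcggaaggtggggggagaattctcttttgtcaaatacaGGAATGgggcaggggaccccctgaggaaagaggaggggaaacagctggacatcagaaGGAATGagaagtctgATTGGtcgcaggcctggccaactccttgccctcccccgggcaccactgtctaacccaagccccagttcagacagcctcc
POU3F1: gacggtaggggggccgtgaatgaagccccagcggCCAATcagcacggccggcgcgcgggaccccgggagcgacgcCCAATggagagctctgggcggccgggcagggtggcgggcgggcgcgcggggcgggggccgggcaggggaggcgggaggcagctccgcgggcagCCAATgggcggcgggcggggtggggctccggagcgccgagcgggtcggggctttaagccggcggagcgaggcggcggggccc
SIX2: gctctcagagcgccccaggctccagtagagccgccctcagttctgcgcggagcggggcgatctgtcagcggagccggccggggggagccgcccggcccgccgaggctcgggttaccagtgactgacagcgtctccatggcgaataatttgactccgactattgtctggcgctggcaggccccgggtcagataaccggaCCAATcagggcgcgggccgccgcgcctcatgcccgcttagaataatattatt
OPTC has 2 TEAD matches in this window and 1 CCAAT match. POU3F1 has 3 CCAAT matches and SIX2 has 1, and neither holds the TEAD letters here. Their GC content was 57.2% for OPTC, 80.8% for POU3F1 and 65.6% for SIX2. Of the 13 lower genes with a listed promoter, 1 held a TEAD match and 8 a CCAAT match, where 35.7% of measured genes hold CCAAT.

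The other lower genes belong to several families. SRSF7, an SR protein of the spliceosome, had 1249 in the library labelled DDX3+YAPsi, against 3117 in that labelled DDX3 and 2502 in the vector library (-1.32). MRPL47, a protein of the large mitochondrial ribosomal subunit, had 4429 in the library labelled DDX3+YAPsi, 9708 in that labelled DDX3 and 6532 in the vector library (-1.13). UCHL3, a ubiquitin and NEDD8 hydrolase, had 3919 in the library labelled DDX3+YAPsi, 8496 in that labelled DDX3 and 5676 in the vector library (-1.12). In these genes the library labelled DDX3+YAPsi was the lowest of all. MORF4L2, a subunit of the NuA4 acetyltransferase complex, had 512 in the library labelled DDX3+YAPsi, against 1119 in that labelled DDX3 and 1105 in the vector library (-1.13). Here the libraries without the knockdown plasmid were nearly equal.

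Also at least 2-fold lower were the secreted phospholipase PLA2G2E (-1.25), the glia maturation factor GMFB (-1.21), LRRC20 (-1.13) and the phospholipase PLB1 (-1.11). RBP3, the retinoid carrier of the eye, was at -1.11, the olfactory receptor OR2T1 at -1.04, the Rab prenylation subunit RABGGTB at -1.03 and DPH2, of diphthamide synthesis, at -1.02. OR2T1 had 14085 in the library labelled DDX3+YAPsi, against 28892 in that labelled DDX3 and 24168 in the vector library, far above the floor in each. PDS5A, a cohesin regulator, was at -1.06 as a mean of probes that disagree. Its brighter probe had 19052 in the library labelled DDX3+YAPsi and 15639 in that labelled DDX3, a difference of 0.28. Its dimmer probe had 153 and 812 in the same order, the first below the floor, and gave -2.41.

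The higher genes include RNA-binding and calcium-binding proteins. MSI1, the RNA-binding protein Musashi-1 of stem cells, had 1140 in the library labelled DDX3+YAPsi, 461 in that labelled DDX3 and 386 in the vector library, a difference of 1.31. FBLL1, a fibrillarin-like protein, had 2592 in the library labelled DDX3+YAPsi, against 1075 in that labelled DDX3 and 1145 in the vector library (1.27). NCS1, a neuronal calcium sensor, had 10174 in the library labelled DDX3+YAPsi, 4567 in that labelled DDX3 and 10181 in the vector library (1.16). For MSI1 and FBLL1 the library labelled DDX3+YAPsi stood above both others, whereas for NCS1 it was close to the vector library and the library labelled DDX3 was the low one. ISYNA1, the enzyme that makes inositol phosphate from glucose 6-phosphate, had 1241 in the library labelled DDX3+YAPsi, against 615 in that labelled DDX3 and 5545 in the vector library (1.01). It was thus far below the vector library in both libraries with the DDX3 plasmid.

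FAM167B had 1299 in the library labelled DDX3+YAPsi, 397 in that labelled DDX3 and 518 in the vector library (1.71). PCDHGA12, a clustered protocadherin of cell adhesion, had 1919 in the library labelled DDX3+YAPsi, against 867 in that labelled DDX3 and 1073 in the vector library (1.15). AHDC1, a DNA-binding protein with AT-hook motifs, had 874 in the library labelled DDX3+YAPsi, 424 in that labelled DDX3 and 422 in the vector library (1.04). In all of these the lower values lay near the floor, except for PCDHGA12. The olfactory receptor OR1J4 (1.15) and the airway secretoglobin SCGB3A2 (1.13) were also higher, as was C19orf73 (1.73), an uncharacterised open reading frame outside the rule for named genes. DIP2C had the top gene value, 2.43, from probes that disagree. Its probe above the floor in both libraries had 691 in the library labelled DDX3+YAPsi and 704 in that labelled DDX3, a difference of -0.03, and the other had 7156 and 241 in the same order.

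**Figure D2:**
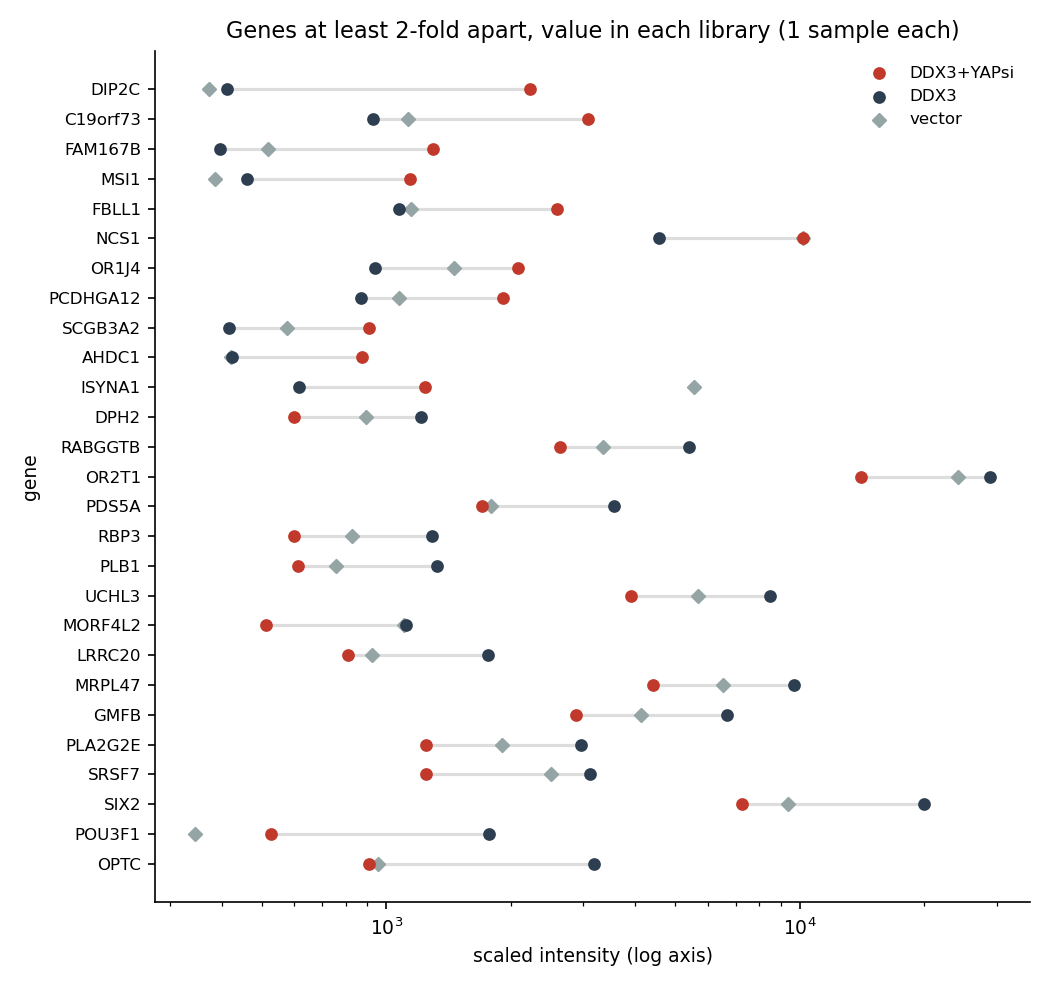
Scaled intensity (log axis) of the 27 genes at least 2-fold apart between the libraries labelled DDX3+YAPsi (red) and DDX3 (dark), with the vector library (grey diamonds), 1 sample each. OPTC, SIX2 and PDS5A show red points near the diamonds and dark points to the right, and ISYNA1 shows a diamond far to the right of both.

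Where a single library reached the floor the difference is a lower bound against the floor of the other. Of 18282 genes, 257 reached it in the library labelled DDX3+YAPsi alone and 248 in that labelled DDX3 alone, and 7943 reached it in neither. At least 2-fold bounds were found for 6 genes on the higher and 2 on the lower side. AK5, an adenylate kinase, had 1201 in the library labelled DDX3+YAPsi, against 83.7 in that labelled DDX3 and 94.7 in the vector library, at least 3.15-fold higher. LINC00520, a long non-coding RNA, was at least 3.26-fold higher, FAM186B at least 2.49-fold, the secreted protein SLURP1 at least 2.17-fold and the synaptic adhesion protein SLITRK3 at least 2.01-fold higher. NFATC2, a transcription factor of T cell activation, gave a bound of at least 5.11-fold from probes with differences of 4.48 and 0.72, neither above the floor in both libraries. BMPR1A, a type I BMP receptor, had 385 in the library labelled DDX3+YAPsi, 1010 in that labelled DDX3 and 733 in the vector library, at least 2.46-fold lower. The neutrophil granule protein AZU1 was at least 2.03-fold lower and the lens filament protein BFSP2 at least 1.98-fold lower.

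Several probes of a gene are the repeated measurement these data offer, although they share the RNA and are not replicates. Of the measured genes, 2329 had at least 2 probes above the floor in both libraries, and in 1476 of them (63.4%) all probes lay on the same side of the median of all genes. For 2 unrelated probes about 50% would do so. The gap between the highest and lowest probe of a gene had a median of 0.22. Across the 2100 genes with exactly 2 such probes the differences of both correlated with Pearson's r of 0.40, a description over genes that share both libraries. Between the libraries labelled DDX3 and vector the corresponding r was 0.28 over 2140 genes. No gene had all its measured probes at least 2-fold apart, while 1 gene had all of them 1.5-fold up or more and 9 genes had all of them 1.5-fold down or more.

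**Figure D3:**
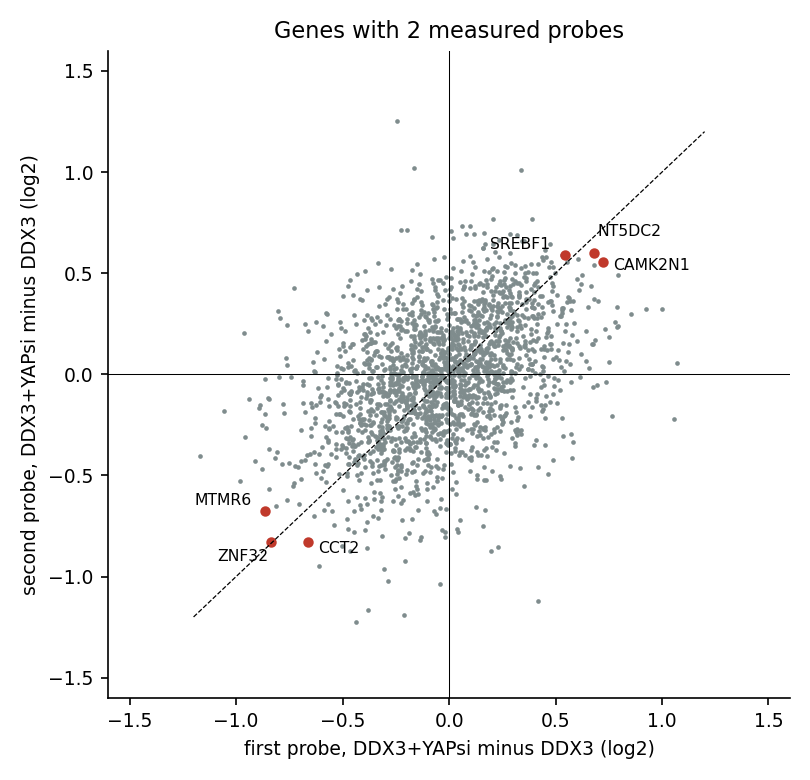
Log2 difference of the first probe (horizontal axis) against that of the second probe (vertical axis) for the 2100 genes with exactly 2 probes above the floor in both libraries, with the line of equality dashed. The points spread widely about the line, with r = 0.40, and the labelled genes, such as ZNF32 and NT5DC2, lie far from the centre.

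The genes whose probes above the floor agreed on the furthest differences are described next. Probes below the floor in either library were left out of this ranking. On the higher side NT5DC2 had 16736 in the library labelled DDX3+YAPsi, against 10739 in that labelled DDX3 and 16294 in the vector library, with probe differences of 0.60 and 0.68. CAMK2N1, an inhibitor of the kinase CaMKII, had 13154 in the library labelled DDX3+YAPsi, 8451 in that labelled DDX3 and 7233 in the vector library, with 0.55 and 0.72. SREBF1, the master transcription factor of lipid synthesis, had 6355 in the library labelled DDX3+YAPsi, against 4291 in that labelled DDX3 and 6174 in the vector library, with 0.54 and 0.59. The library labelled DDX3 was the low one for NT5DC2 and SREBF1, but not for CAMK2N1. TFEB, the transcription factor of lysosome biogenesis, had probes at 0.55 and 0.56, and TAPBP, which loads peptides onto MHC class I, at 0.50 and 0.50. Further probes below the floor were at 0.29 for TFEB and at 0.62 and -0.04 for TAPBP. ZDHHC8, a palmitoyltransferase, had 0.54 and 0.68, IDH3G of the citric acid cycle 0.49 and 0.53, and the chemokine CCL14 0.47 and 0.48. MFSD12, PPDPF, ZBTB47 and MPV17L2 completed the 12 highest by this measure, with smaller probe differences between 0.48 and 0.53.

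On the lower side the zinc finger gene ZNF32 had 1950 in the library labelled DDX3+YAPsi, against 3476 in that labelled DDX3 and 3846 in the vector library, with probe differences of -0.83 and -0.84. CCT2, a subunit of the chaperonin that folds actin and tubulin, had 15407 in the library labelled DDX3+YAPsi, 25862 in that labelled DDX3 and 27827 in the vector library, with -0.66 and -0.83. METAP2, which removes the initiator methionine, had 4808 in the library labelled DDX3+YAPsi, against 7670 in that labelled DDX3 and 5199 in the vector library, with -0.64 and -0.70. ZNF32 and CCT2 were lowest in the library labelled DDX3+YAPsi with the others close together, whereas for METAP2 the library labelled DDX3 was the high one. TIA1, an RNA-binding protein of stress granules, had probes at -0.63 and -0.70. The phosphoinositide phosphatase MTMR6 had -0.68 and -0.87, the nucleolar protein NOL11 -0.57 and -0.64, and CCNG1, a p53-induced cyclin, -0.55 and -0.73. TUBGCP5, of the gamma-tubulin ring complex, had -0.59 and -0.67. ZNF544, ERI2, SNX13 and FUNDC2 completed the 12 lowest.

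Mitotic genes lay below the other genes. Of 19 measured genes of the spindle checkpoint and kinetochore, 15 lay below and 4 above the median of all genes, with a median difference of -0.31. At least 1.5-fold lower were 4 of the 19, against 2.5% of all measured genes. BUB1, a checkpoint kinase, had 6595 in the library labelled DDX3+YAPsi, against 10475 in that labelled DDX3 and 9512 in the vector library (-0.67). MAD2L1, which holds back the anaphase-promoting complex, had 19702 in the library labelled DDX3+YAPsi, 31655 in that labelled DDX3 and 24598 in the vector library (-0.68). BUB1B was at -0.62, the kinase TTK at -0.61 and the kinetochore protein NDC80 at -0.57. In all of these the library labelled DDX3+YAPsi was the lowest. CDC20, which activates the anaphase-promoting complex and is outside the rule for named genes, stood apart at 0.40.

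Mitotic kinases, kinesins and cyclins had a median of -0.18 over 35 measured genes, 29 below and 6 above the median of all genes. PRC1, which bundles microtubules of the central spindle, had 4399 in the library labelled DDX3+YAPsi, against 7342 in that labelled DDX3 and 5880 in the vector library (-0.74). The cytokinesis protein ANLN was at -0.64 and the centriole kinase PLK4 at -0.56. The opposite side held UBE2S (0.65), a ubiquitin enzyme of the anaphase-promoting complex, and TPX2 (0.56), the activator of Aurora A, with 49298 in the library labelled DDX3+YAPsi and 33355 in that labelled DDX3. DNA replication genes had a median of -0.16 with 30 of 37 below the median of all genes, led by the polymerase subunit POLD3 (-0.58) and the origin recognition subunits ORC5 (-0.56) and ORC4 (-0.53), with POLD1 at 0.51. Genes of the G1/S step lay near the other genes, at a median of 0.05 over 21 genes, with CCNE2 at -0.64, RB1 at -0.51, CDK6 at -0.48 and CCND1 at 0.32. The replication-dependent histones, 20 measured of 54 listed, had a median of -0.08. Relative to the median of all genes, the spindle, mitotic and replication medians kept their sign in all 13 alternative settings, including those that shift all genes alike and could not change it.

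The upstream sequences of BUB1, BUB1B and PRC1 are shown because CHR and CCAAT letters are known from promoters of mitotic genes. BUB1 lies at chr2:110678064-110678313 on the minus strand, BUB1B at chr15:40160819-40161068 on the plus strand and PRC1 at chr15:90994536-90994785 on the minus strand.
BUB1: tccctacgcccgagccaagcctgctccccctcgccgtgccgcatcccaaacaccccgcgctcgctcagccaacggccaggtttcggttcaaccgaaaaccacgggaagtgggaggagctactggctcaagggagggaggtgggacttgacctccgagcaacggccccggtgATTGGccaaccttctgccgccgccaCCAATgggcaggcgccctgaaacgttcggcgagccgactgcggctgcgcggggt
BUB1B: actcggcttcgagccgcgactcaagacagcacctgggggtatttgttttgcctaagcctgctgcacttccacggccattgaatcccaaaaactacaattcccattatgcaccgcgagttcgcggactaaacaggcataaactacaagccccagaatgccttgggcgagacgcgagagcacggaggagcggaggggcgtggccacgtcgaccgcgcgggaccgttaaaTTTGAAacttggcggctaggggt
PRC1: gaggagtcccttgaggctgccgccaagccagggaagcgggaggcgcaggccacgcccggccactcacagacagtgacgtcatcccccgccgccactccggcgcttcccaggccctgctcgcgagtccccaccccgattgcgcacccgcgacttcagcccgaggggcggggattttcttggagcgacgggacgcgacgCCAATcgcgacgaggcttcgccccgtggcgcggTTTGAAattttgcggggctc
BUB1B and PRC1 hold 1 CHR match each, and BUB1 holds 2 CCAAT matches and no CHR letters. A CHR match was present in 14 of 30 promoters of the mitotic list (46.7%) and in 8.29% of the promoters of measured genes, or 13.6% of all 27305 promoters. CCAAT was present in 23 of 30 (76.7%), against 35.7% of measured genes and 33.0% of all promoters. Of the spindle checkpoint promoters 4 of 15 held CHR and 7 held CCAAT. The letters TGANTCA (AP-1) and TGACGTCA (CRE), searched in the same way, were found in 6.6% and 1.77% of all promoters, and in 0 and 5 of the 30 mitotic ones. A match is a description of letters and says nothing of whether a factor binds.

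Genes of protein synthesis lay below the other genes, unevenly. Aminoacyl-tRNA synthetases had a median of -0.24 over 35 genes, 28 of them below the median of all genes. GARS, which charges glycine, had 5620 in the library labelled DDX3+YAPsi, against 9270 in that labelled DDX3 and 5975 in the vector library (-0.72). The mitochondrial synthetases EARS2 (-0.65), NARS2 (-0.61) and HARS2 (-0.60) and the cytosolic YARS (-0.57) followed. Translation initiation factors had a median of -0.14, with 26 of 39 below, among them EIF2B3 (-0.58) and EIF3M (-0.58). The other 13 lay above, the highest at 0.56. Cytosolic ribosomal proteins had a median of -0.06, with 40 of 60 below. RPL30 had 62629 in the library labelled DDX3+YAPsi, against 107976 in that labelled DDX3 and 106680 in the vector library (-0.79), and RPL14 was at -0.81.

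Box C/D and nucleolar proteins of ribosome assembly had a median of -0.24, with 8 of 10 below the median of all genes and FBLL1 the exception past 2-fold. NHP2L1, a core protein of these particles, had 5435 in the library labelled DDX3+YAPsi, 9437 in that labelled DDX3 and 8977 in the vector library (-0.80), and nucleolin, NCL, was at -0.47. DEAD-box helicases, the family of DDX3X, had a median of -0.10 with 31 of 41 below. DDX47 had 8468 in the library labelled DDX3+YAPsi, against 15641 in that labelled DDX3 and 12227 in the vector library (-0.89), DDX18 was at -0.67 and DDX19A at -0.61. On the same relative scale these medians, too, had the same sign in all 13 alternative settings, as had those of the synthetases, initiation factors and cytosolic ribosomal proteins.

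Splicing factors differed by family. SR proteins, which define exons, had a median of -0.25 with 11 of 13 below the median of all genes, among them SRSF7, SRSF3 (-0.40) and TRA2B (-0.35), while SRSF5 had 12845 in the library labelled DDX3+YAPsi and 9321 in that labelled DDX3 (0.46). The hnRNPs lay closer to other genes, at -0.08 over 17 genes with 11 below, led by HNRNPUL1 on the higher side (0.59). Among 26 snRNP and SF3 proteins the median was -0.06, with SF3B2 at -0.79 and SF3A2 at 0.70. SF3B2 had 10873 in the library labelled DDX3+YAPsi, against 18825 in that labelled DDX3 and 11476 in the vector library. The RBM proteins had a median of -0.03 over 32 genes, with RBM39 at -0.59 and RBM4B at 0.54. Musashi, MEX3 and IGF2BP proteins had a median of 0.31 over 7 genes, 4 above and 3 below the median of all genes, with MEX3D at 0.66 beside MSI1. With a floor at the 25th percentile their median was 0.11 over 9 genes.

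Mitochondrial genes also split by complex. Proteins of the import machinery had a median of -0.20, with 18 of 20 below the median of all genes. TIMM21 had 4948 in the library labelled DDX3+YAPsi, against 7766 in that labelled DDX3 and 8144 in the vector library (-0.65), TOMM34 was at -0.43 and TIMM17A at -0.41. Subunits of complexes II and III had a median of -0.17, with 10 of 10 below. SDHD, the membrane anchor of succinate dehydrogenase, had 22556 in the library labelled DDX3+YAPsi, 41331 in that labelled DDX3 and 33303 in the vector library (-0.87). Mitochondrial ribosomal proteins had a median of -0.10 with 55 of 70 below, from MRPL47 to MRPL38, which was at 0.99. MRPL38 had 7686 in the library labelled DDX3+YAPsi, against 3881 in that labelled DDX3 and 15342 in the vector library. ATP synthase subunits had -0.07, with 11 of 15 below. Complex I (0.04 over 34 genes) and complex IV (0.03 over 10) lay at the median of all genes, with COX7B at -0.67 and NDUFC2 at 0.49.

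Protein folding and breakdown genes tended lower as well. Proteasome subunits had a median of -0.17, with 26 of 35 below the median of all genes. PSMD4, a ubiquitin receptor of the proteasome, had 18126 in the library labelled DDX3+YAPsi, 27600 in that labelled DDX3 and 37732 in the vector library (-0.61), and PSMA6 stood at 0.50. The CCT chaperonin had a median of -0.18 with 6 of 7 below, CCT8 at -0.63 beside CCT2. Heat shock and DNAJ proteins had -0.07 over 49 genes, from DNAJC25 (-0.68) to the mitochondrial chaperone HSPA9 (0.83). Ubiquitin-conjugating enzymes (0.05 over 24) and deubiquitinases (0.01 over 44) did not lean to a side in the same way, with 13 and 20 genes above the median of all genes. Common reference genes had a median of -0.23, with 9 of 12 below. GAPDH had 91319 in the library labelled DDX3+YAPsi, against 141248 in that labelled DDX3 and 151000 in the vector library (-0.63), while POLR2A was at 0.59.

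Genes of the EGR, NR4A and IER list and KLF and SP factors mostly lay above the median of all genes. The EGR, NR4A and IER list had a median of 0.30 over 17 genes, 15 of them above the median of all genes. EGR1, a zinc finger factor induced by mitogens, had 94328 in the library labelled DDX3+YAPsi, against 53370 in that labelled DDX3 and 39502 in the vector library (0.82). SRF, the serum response factor, was at 0.47, the nuclear receptor NR4A1 at 0.41, IER5L at 0.35 and EGR3 at 0.33. KLF and SP factors had a median of 0.22 with 13 of 18 above, led by KLF16 (0.72) and SP7 (0.49), with KLF10 at -0.31. AP-1 and ATF factors lay close to other genes, at 0.07 over 15 genes. JUND had 14316 in the library labelled DDX3+YAPsi, against 9122 in that labelled DDX3 and 13243 in the vector library (0.65), and ATF3 was at 0.38.

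Signalling lists had smaller medians on the higher side. Output genes of ERK had a median of 0.14, with 10 of 13 above the median of all genes, but DUSP6, the ERK phosphatase, had 705 in the library labelled DDX3+YAPsi, 1300 in that labelled DDX3 and 873 in the vector library (-0.88). Wnt targets had a median of 0.20 with 15 of 16 above. SOX9, a factor of intestinal crypt cells, had 6474 in the library labelled DDX3+YAPsi, against 4483 in that labelled DDX3 and 6809 in the vector library (0.53). NOTUM, which inactivates Wnt ligands, had 8827 in the library labelled DDX3+YAPsi, 6447 in that labelled DDX3 and 11386 in the vector library (0.45), and the stem cell factor ASCL2 was at 0.44. TNFRSF19 was the member below, at -0.69. For SOX9 and NOTUM the library labelled DDX3 was the low one.

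Receptors and SMADs of BMP and TGF-beta signalling had a median of 0.14 with 12 of 15 above the median of all genes, led by BMPR1B (0.45) and ACVR2A (0.38). BMPR1A, described above as at least 2.46-fold lower, is not among the 15 because its level with the knockdown plasmid did not reach the floor. NF-kB targets had 0.24 over 9 genes, with BCL3 at 0.62 and ICAM1 at 0.56. The BCL2 family had 0.14 over 13 genes, with the death-promoting BIK at 0.46 and the survival gene BCL2L1 at -0.32. Targets of p53 had -0.10 over 21 genes, with CCNG1 at -0.64 and SESN2 at 0.55, and interferon response genes had -0.02 over 13, with IFI6 at 0.58 and ISG15 at -0.42. Genes of the ATF4 and unfolded protein response had 0.03 over 18. Relative to the median of all genes, the BMP, NF-kB, BCL2, EGR, KLF, ERK and Wnt medians kept their sign in all alternatives run, which were 12 for NF-kB and 13 for the others, whereas that of p53 targets did so in 12 of 13. Their size varied: on this scale NF-kB targets ran between 0.0069 and 0.25, ERK output genes between 0.01 and 0.32 and the BMP list between 0.03 and 0.13.

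Epithelial and sensory families contained many dim genes. Of 53 listed keratins 15 were measured, 13 of them above the median of all genes, and their median was 0.29. KRT75 had 2733 in the library labelled DDX3+YAPsi, against 1461 in that labelled DDX3 and 2304 in the vector library (0.90), and KRT16 was at 0.56. Of 287 listed olfactory receptors 74 were measured, 49 of them above, and their median was 0.28. It was 0.0097 over the 21 receptors above a floor at the 75th percentile. Their differences ran from -1.04 (OR2T1) to 1.15 (OR1J4), with OR10G2 at -0.92, OR2D2 at 0.93 and OR11G2 at 0.84. Past 1.5-fold were 9 of the 74 on the higher and 3 on the lower side, against 2.43% and 2.5% of all measured genes. Claudins and tight junction genes had 0.07 over 11 genes, with CLDN3 at 0.56 and CLDN12 at -0.58, and integrins and laminins had 0.08 over 17, with ITGB1 at -0.51.

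Metabolic lists lay on both sides. Glycolysis genes had a median of -0.10 over 17 genes, with TPI1 at -0.30 and PFKP at 0.33 beside GAPDH. Cholesterol synthesis genes had -0.07 over 19, with IDI1 at -0.63, PMVK at -0.54 and MVD at 0.50. Of 9 inositol and phosphoinositide genes the median was 0.04, and PIP5K1C (0.59), a kinase that makes the lipid PIP2, followed ISYNA1. Solute carriers (0.04 over 181), zinc finger ZNF genes (0.04 over 214), RAB GTPases (0.03 over 38) and genes of RNA polymerase II and Mediator (-0.01 over 36) had medians near that of all genes. Proteins of the microRNA machinery had -0.02 over 11 genes, and the outermost were DGCR8 (-0.18) and TNRC6B (0.17).

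**Figure D4:**
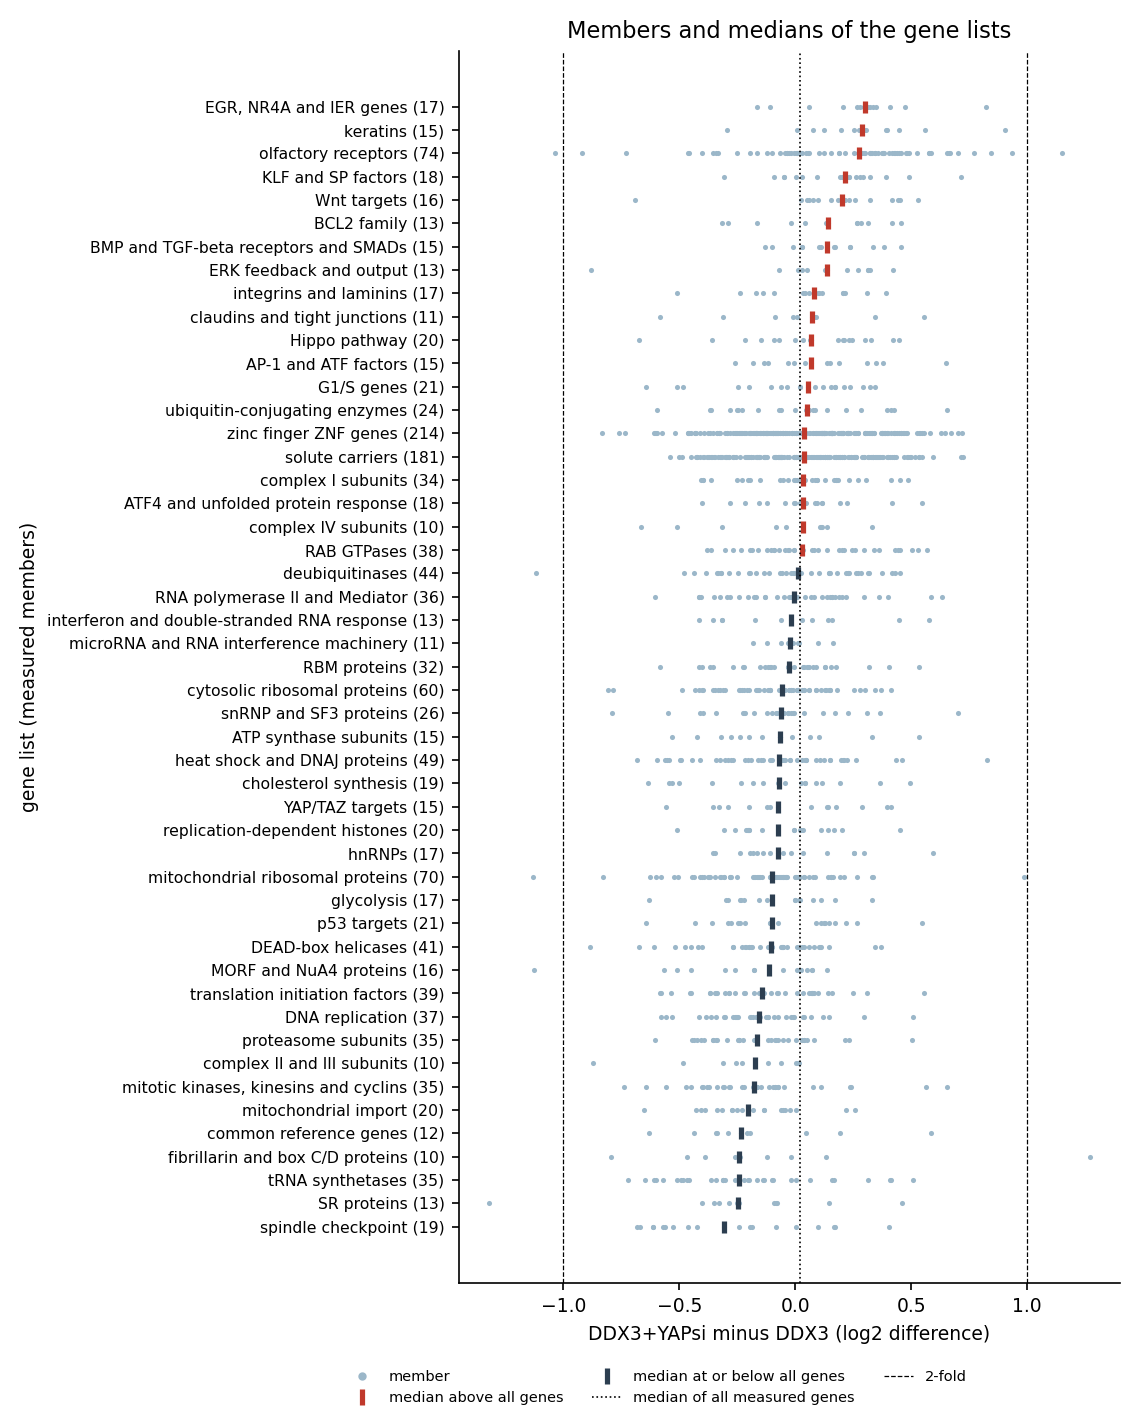
Log2 difference between the libraries labelled DDX3+YAPsi and DDX3 for the measured members (points) and their median (bars, red above and dark at or below the median of all genes) of each gene list with at least 10 measured members. The medians run from -0.31 for the spindle checkpoint to 0.30 for the EGR, NR4A and IER genes, with the median of all genes dotted at 0.02.

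The differences also moved with features of the genes that no list used. Genes were split into 10 bins by promoter GC content, taken over 250 bases before and 50 after the start. In the GC-richest bin the median difference was 0.12, and in bins 2 to 4 from the GC-poor end it lay between -0.05 and -0.04. Of 5 bins by genomic span the shortest genes had a median of 0.11 and bin 4 had -0.04. Of 10 bins by level the dimmest had 0.10 and the brightest 0.00. Genes on chromosome 19 had a median of 0.21 over 647 genes, and those on chromosome 13 had -0.10 over 156. Between the libraries labelled DDX3 and vector, which share the library labelled DDX3 with this comparison, the corresponding medians were 0.02 for the GC-richest bin, -0.05 for the shortest genes and -0.06 for chromosome 19.

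Beside the lists, the promoters of the spindle checkpoint genes had a median GC content of 62.3%, those of the tRNA synthetases 62.2%, those of the EGR, NR4A and IER genes 69.3% and those of the olfactory receptors 39.0%, against 65.3% for all measured genes. Centred on the median of its GC bin, the spindle checkpoint list lay at -0.31 over 15 genes, the synthetases at -0.22 over 26, the EGR list at 0.33 over 11 and the olfactory receptors at 0.25 over 62. Wnt targets lay at 0.08 over the 8 with a listed promoter and ERK output genes at 0.01 over 8. With a loess curve on mean level removed, the spindle checkpoint list lay at -0.31, the synthetases at -0.26, the EGR list at 0.29 and the olfactory receptors at 0.22. The part of gene span and chromosome in the list medians was not tested.

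**Figure D5:**
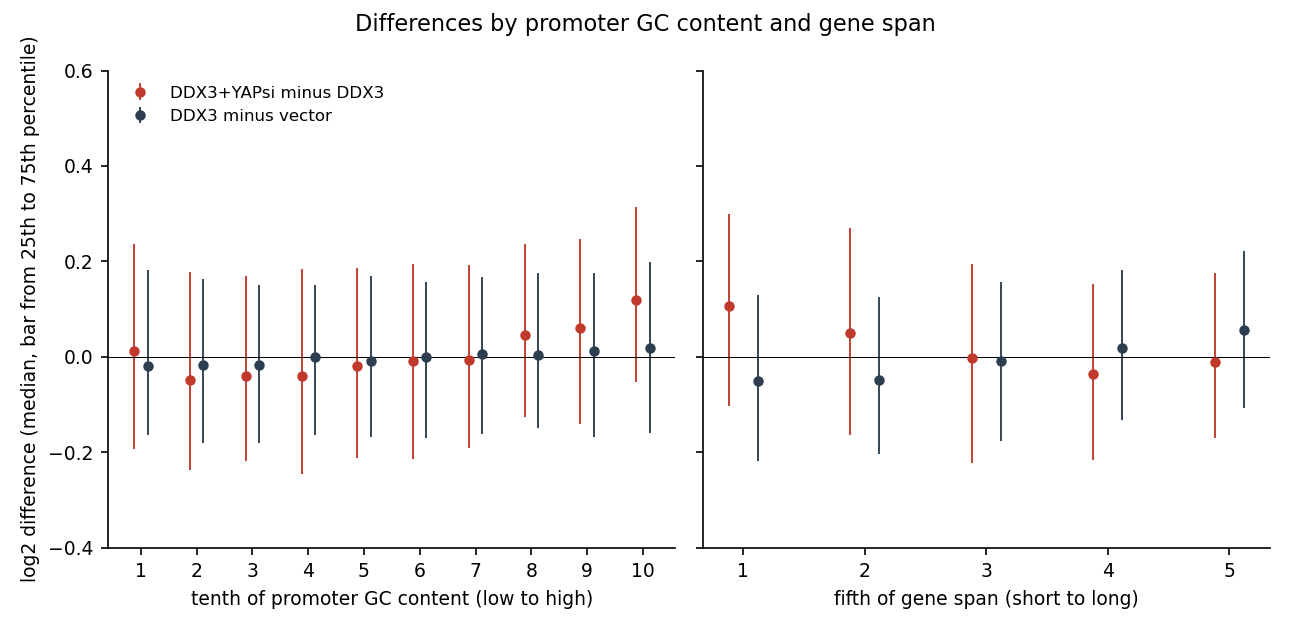
Median log2 difference (points) with the 25th to 75th percentile (bars) by bin of promoter GC content (left) and of gene span (right), between the libraries labelled DDX3+YAPsi and DDX3 (red) and between those labelled DDX3 and vector (dark). Red medians reach 0.12 in the GC-richest bin and 0.11 among the shortest genes, and every bar crosses 0.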

How the data were processed

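Total RNA of 3 SW48 samples was hybridised with Cy5 dye on 1-colour arrays, per the labels' protocols. The authors deposited 1 intensity per probe and sample, linear to judge by its range. For background correction, normalization and the combining of the 2 technical replicates of a sample, a method was not given in the sources used here. No array has a depth, and their low number limits the precision. Of 31741 probes, 24658 had exactly 1 symbol in the platform annotation, 1002 had several and 6081 had none, and the last 2 kinds were left out of gene values. Each library was scaled to the geometric mean of the 75th percentiles (factors 1.35 for DDX3+YAPsi, 0.922 for DDX3 and 0.806 for vector), log2 was taken, and a gene took the mean of its probes. Of 18282 symbols 18221 were found in RefSeq (GRCh38.p14), and 8143 of the 9834 measured genes (82.8%) had a listed promoter.

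Calls were differences of at least 1 (log2), with no test. Each of 64 gene lists was described by counts, and by a median from 4 measured members. The members and lists were chosen with earlier results of these data known, and list patterns were narrowed to whole symbols after a first look at values. Named genes were all genes past 2-fold (up to 20 a direction), the 12 highest and 12 lowest with agreeing probes, 6 bounds a direction, up to 5 members per list, and YAP1, WWTR1, DDX3X, SIX2, CYR61 and CTGF; clone, ORF, antisense and pseudogene symbols were passed over. The promoters shown and CDC20 were picked with their values in view. The scaling, the floor, the gene means and the 2-fold calls were first tested on simulated data with planted 3-fold differences. The other steps were not simulated. Alternatives were other scalings, floors, probe summaries, offsets and thresholds, and, added after seeing the data, centring within 10 bins of promoter GC content. The alternative that holds each probe to the floor was rewritten after its first output, so that a gene has to exceed the floor. Python 3.11.15, numpy 2.4.6, pandas 2.3.3, scipy 1.17.1, statsmodels 0.14.6 and matplotlib 3.10.9 were used.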

Additional observations from a re-analysis of the deposited data

Results flagged for a closer look

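Among probes without a gene symbol, which enter no gene value, a pair stood at least 2-fold above both other libraries in the library labelled DDX3+YAPsi. PH_hs_0061647 had 9388 in the library labelled DDX3+YAPsi, against 4593 in that labelled DDX3 and 3678 in the vector library, a log2 difference of 1.03 from the library labelled DDX3. PH_hs_0061597 had 1239 in the library labelled DDX3+YAPsi, 471 in that labelled DDX3 and 540 in the vector library, a difference of 1.39. Both were set apart because their signal lies outside the genes compared and above the level in the other libraries. The 2-fold limit for this was chosen after a stricter one had returned no probe.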

How the results depend on the processing

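The 11 higher and 16 lower genes (40.7% of calls higher) became 3 and 556 (0.54%) without scaling, which moved the median of all genes by -0.54 (log2), and 9 and 20 (31.0%) with scaling to a common median, which moved it by -0.11. They were 40 and 30 (57.1%) with a floor at the 25th percentile, 1 and 6 (14.3%) with a floor at the 75th, 51 and 51 (50%) with no floor, and 26 and 23 (53.1%) with the brightest probe. They were 7 and 9 with an offset of 200, 239 and 246 at 1.5-fold, and 3 and 2 at 3-fold. For probe agreement, the percentage of genes whose probes lay on the same side, the value was 70.0% for the 75th percentile floor and 57.8% for none. With the brightest probe DIP2C turned to -0.025 and PDS5A to 0.28. Relative to the median of all genes, secreted phospholipases A2 turned to 0.029 and mesenchymal transition genes to -0.036 with a floor at the 25th percentile, and to 0.12 and -0.061 with no floor. MORF and NuA4 proteins turned to 0.023 and p53 targets to 0.011 with the 75th percentile floor. The cause was not tested. No paired analysis was possible because each group has 1 sample, and no sample could be left out for the same reason. In 12 of the 27 genes past 2-fold the dimmer value was under 2 times the floor of its library. The share of all measured genes under that level is not given here.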

Other observations

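Of probes with no gene symbol 1756 were measured in both libraries, and past 2-fold between the libraries labelled DDX3+YAPsi and DDX3 were 4 on the higher and 10 on the lower side. Of probes with several symbols 513 were measured, 2 higher and 2 lower. Of the measured genes 0.112% were past 2-fold higher and 0.163% lower. Those shares are over gene values, whereas the probe counts are of single probes. The lowest of those without a symbol, PH_hs_0061412, had 492 in the library labelled DDX3+YAPsi, against 1637 in that labelled DDX3 and 490.2 in the vector library (-1.73).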
